A study of Mus musculus with 6 samples.

Results

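Krüppel-like factors (KLFs) are transcription factors that bind GC-rich and CACCC-containing DNA through zinc fingers at the end of the protein. Their levels were followed across the cell types of the mouse peritoneum for 8 genes, *Klf2*, *Klf3*, *Klf4*, *Klf6*, *Klf7*, *Klf9*, *Klf10* and *Klf13*, of 55538 features in the table, in 7665 kept cells of 7760. The 8 genes were given by name. The cells were sorted into classes by counts of marker transcripts that contain no KLF gene. B cells (2948) carried at least 4 unique molecular identifiers (UMIs) of *Cd79a* and *Cd79b*. T/NK cells (514) carried at least 2 of *Cd3d*, *Cd3e* and *Nkg7*. Macrophages (MΦs, 2773) carried at least 2 of *Csf1r*, *Adgre1* and *Fcer1g*, with at most 2 B cell UMIs and at most 1 T/NK UMI. Both larger classes were split further. Of the B cells, 88 had a UMI of *Fcer2a* and none of *Bhlhe41*, *Zbtb32* or *Cd5*, 1290 had the opposite, and 1570 fell in neither group, of which 66 had UMIs of both sides and 1504 of none. Of the MΦs, 657 had a UMI of *Gata6* and 2116 had none. A further 1277 cells met no rule, and 153 cells met the B and the T/NK rule and were left out of both.

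The cells came from C57BL/6 mice (C57BL/6J in the study's methods) aged 8 to 12 weeks that were *Mertk*+/+ or *Mertk*-/-, the latter carrying the MerKD allele of a receptor for apoptotic cells. Lavaged cells were kept if they adhered to plastic, given a media change alone (control) or cultured for 2 h or 6 h with UV-killed human Jurkat T cells as apoptotic cells (ACs), and loaded for droplet sequencing. Each of the 6 combinations of genotype and condition was 1 library, made from the pooled cells of 3 mice. The barcodes carry a library number that was not matched to a genotype or a time. Hence no comparison between genotypes or times was made, the spread over libraries holds both of these differences, and no p-value is given. The labels name the cells peritoneal MΦs, whereas B cells (2948) outnumbered MΦs (2773) by the marker counts over all libraries together. In libraries 4 and 6 MΦs were the more numerous, 690 against 508 and 517 against 284.

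KLF2 keeps lymphocytes quiescent and drives the receptors with which they leave tissues and home, and in MΦs it is linked to the clearance of ACs. KLF3 is a repressor that works through CtBP corepressors. KLF4 takes part in monocyte differentiation, KLF6 in inflammatory gene expression of MΦs, KLF9 follows glucocorticoid and thyroid hormone, and KLF10 was found as an early gene of TGF-β.

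Start regions are shown for the members with the highest T/NK level and for a pair of those with the highest MΦ level, because KLF genes are themselves often under the control of the GC-box and CACCC-box factors they encode. *Klf2*, *Klf3* and *Klf13* had their highest level in T/NK cells, and *Klf4* and *Klf9* in MΦs. The sequences are from RefSeq (GRCm38.p6), 5′ to 3′ on the strand of the gene. They run from 250 bases before the RefSeq start to that start, or to the start of the GENCODE gene where that lies earlier, which left 221 bases for *Klf2* and 117 for *Klf3*. They lie at chr8:72318812-72319032 (+), chr5:64803271-64803387 (+), chr7:63938916-63939165 (−), chr4:55532476-55532725 (−) and chr19:23140976-23141225 (+). Capitals mark motifs found on either strand. The GC box was searched as GGGCGG and the CACCC box by the letters of its name. The letters for AP-1 were TGANTCA, where N is any base. The core of the cAMP response element was searched as TGACGT, and the FOXO motif as GTAAACA. The MEF2 motif is given by name alone.
Klf2: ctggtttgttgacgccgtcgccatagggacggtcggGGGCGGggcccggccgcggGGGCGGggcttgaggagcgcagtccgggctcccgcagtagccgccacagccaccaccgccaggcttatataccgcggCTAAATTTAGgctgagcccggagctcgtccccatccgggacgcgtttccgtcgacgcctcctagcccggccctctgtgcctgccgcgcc
Klf3: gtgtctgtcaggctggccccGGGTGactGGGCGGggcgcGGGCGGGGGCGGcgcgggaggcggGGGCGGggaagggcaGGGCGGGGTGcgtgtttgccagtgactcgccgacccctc
Klf13: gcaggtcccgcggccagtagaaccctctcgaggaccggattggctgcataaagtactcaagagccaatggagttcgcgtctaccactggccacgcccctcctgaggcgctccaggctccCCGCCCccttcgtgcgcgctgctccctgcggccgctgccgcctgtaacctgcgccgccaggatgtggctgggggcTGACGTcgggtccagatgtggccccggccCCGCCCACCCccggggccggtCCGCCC
Klf4: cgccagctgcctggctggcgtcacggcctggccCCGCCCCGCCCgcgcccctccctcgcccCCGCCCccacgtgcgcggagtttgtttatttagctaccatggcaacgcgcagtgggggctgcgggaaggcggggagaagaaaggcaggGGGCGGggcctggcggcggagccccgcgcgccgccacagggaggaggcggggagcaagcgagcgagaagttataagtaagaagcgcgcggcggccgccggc
Klf9: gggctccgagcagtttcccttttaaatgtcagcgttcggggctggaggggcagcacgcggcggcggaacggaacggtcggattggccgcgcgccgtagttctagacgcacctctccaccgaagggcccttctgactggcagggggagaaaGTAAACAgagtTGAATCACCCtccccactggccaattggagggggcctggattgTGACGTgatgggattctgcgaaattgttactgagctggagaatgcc

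A start region was found for 7 of the 8 members, all but *Klf10*. Over the full 250 bases, *Klf2* held 2 GC boxes, 1 CACCC box that lies past the printed stretch, and 1 MEF2 motif, which 3.20% of 32851 such regions hold. *Klf3* held 6 GC boxes and 5 CACCC boxes, more than any other member, and some of each lie past the printed stretch. *Klf13* held 3 GC boxes, 1 CACCC box that overlaps one of them, and 1 cAMP element core. *Klf4* held 4 GC boxes and none of the other motifs. *Klf9* differed from the rest in holding no GC box. It held 1 FOXO motif (in 3.17% of regions), 1 AP-1 motif (6.75%) that overlaps its CACCC box, and 1 cAMP element core (6.47%). *Klf6* had 1 GC box and *Klf7* had 1 GC box and 3 CACCC boxes. The *Klf7* region (1:64121390-64121639, −) lies wholly inside the GENCODE gene, which starts earlier, at 64122282 on that strand. A GC box is present in 32.7% and a CACCC box in 52.0% of all regions. No member held a CArG box, found in 1.47%. The 7 regions were 59.2% to 78.4% G or C, against a median of 52.4%. These are matches of letters and no measure of binding.

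Levels are given as UMIs of a gene per 1000000 UMIs of all genes (CPM), summed over the cells of a class. Brackets hold exact Poisson 95% intervals, which cover counting error only. Beside them stand the lowest, median and highest of the 6 libraries. Depth differed between the classes, at a median of 5416 UMIs per B cell, 2813.5 per T/NK cell and 4426 per MΦ, so shares of cells were computed after thinning every cell to 1500 UMIs. The libraries held 4234786 to 10287079 UMIs, and library 6 was the thinnest, with 18 T/NK cells and 7 *Fcer2a* B cells. Barcode sequences that occur in more than 1 library numbered 28. T/NK cells showed 8 of 8 further T cell markers and 1 of 6 NK cell markers in at least 10% of cells, B cells 7 of 7 B cell markers, and MΦs 8 of 8 MΦ markers. MΦ markers also reached 2323 CPM in T/NK cells (66.6 to 4950 by library) against 382 in B cells and 18004 in MΦs. T/NK values are therefore also given without the 47 cells that had 2 or more MΦ rule UMIs. Without them *Klf3* was at 141 CPM, *Klf6* at 112, *Klf10* at 4.16 and *Klf13* at 171 in T/NK cells. For the other members the value stands with the gene. The mesothelial markers *Msln*, *Upk3b* and *Krt19* were at 0 in every class.

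*Klf2* (8:72319033-72321656, +) was highest in T/NK cells in 6 of 6 libraries. Its level there was 397 CPM (369–427, libraries 244, 389 and 544), against 136 in B cells (130–141, libraries 58.7, 136 and 184) and 91.7 in MΦs (86.7–96.9, libraries 21.0, 92.7 and 128). The T/NK libraries all lay above every B cell and MΦ library. Within the smaller classes the level was 141 CPM in *Gata6* MΦs, 135 in *Fcer2a* B cells and 131 in *Bhlhe41*/*Zbtb32*/*Cd5* B cells, and these intervals overlap. MΦs without *Gata6* were lowest at 71.8 (66.6–77.3). At equal depth 44.8% of T/NK cells (40.4–49.3%) held a *Klf2* UMI, as did 18.1% of B cells (16.7–19.6%) and 9.67% of MΦs (8.57–10.8%). Without the cells that carried MΦ UMIs the T/NK level was 470 CPM (435–507).

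*Klf3* (5:64803388-64832901, +) had the same first place. It stood at 131 CPM in T/NK cells (115–149, libraries 44.4, 139 and 195), 72.8 in MΦs (68.4–77.4, libraries 36.9, 71.5 and 85.4) and 29.5 in B cells (27.1–32.1, libraries 17.4, 27.2 and 40.2). B cells were lowest in 6 of 6 libraries. T/NK cells were highest in 5, since in library 6 MΦs stood above the 18 T/NK cells. *Gata6* MΦs (89.9 CPM) lay above MΦs without *Gata6* (65.9), with library ranges that overlap. At equal depth the share was 17.9% in T/NK cells, 10.2% in MΦs and 4.36% in B cells.

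*Klf13* (7:63886351-63938915, −), known in T cells as a factor for late chemokine expression, gave the same order as *Klf3*. It stood at 161 CPM in T/NK cells (143–181, libraries 134, 157 and 281), 101 in MΦs (95.5–106, libraries 73.4, 104 and 128) and 68.2 in B cells (64.5–72.1, libraries 52.6, 70.0 and 93.4). Every T/NK library lay above every B cell and MΦ library, and B cells were lowest in 6 of 6 libraries. The shares at equal depth were 23.5%, 14.1% and 9.73%. No interval of these 3 shares overlaps another.

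*Klf9* (19:23141226-23168134, +) separated MΦs from both lymphocyte classes most widely. It stood at 166 CPM in MΦs (160–173, libraries 108, 173 and 214), 20.3 in T/NK cells (14.3–28.0, libraries 12.5, 21.2 and 27.2) and 11.2 in B cells (9.77–12.9, libraries 9.69, 11.1 and 14.1). No MΦ library came near a lymphocyte library. *Gata6* MΦs (163 CPM) and MΦs without *Gata6* (168) did not differ beyond their intervals. Without the cells that carried MΦ UMIs the T/NK level was 5.55 CPM (2.40–10.9), from 8 UMIs in place of 37. At equal depth 23.3% of MΦs (21.7–25.0%) held a *Klf9* UMI, against 1.34% of B cells and 1.61% of T/NK cells. MΦ markers were also found in both lymphocyte classes, and these low shares were not read as expression.

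*Klf4* (4:55527143-55532466, −) was sparse and highest in MΦs in 6 of 6 libraries. It stood at 18.7 CPM in MΦs (16.4–21.1, libraries 12.9, 18.3 and 36.6) and at 2.60 in B cells (1.91–3.44, libraries 1.57, 2.52 and 6.01). T/NK cells held 5 UMIs in all (2.75 CPM), 1 of them outside the cells with MΦ UMIs. *Fcer2a* B cells held none, which allows up to 7.92 CPM. At equal depth the share was 2.75% of MΦs (2.17–3.44%), 0.309% of B cells and 0 of 498 T/NK cells, which allows up to 0.602%. MΦs without *Gata6* (19.9 CPM) and *Gata6* MΦs (15.7) had intervals that overlap.

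*Klf6* (13:5861482-5870394, +) stood at 296 CPM in MΦs (287–305, libraries 190, 301 and 440), 120 in T/NK cells (105–137, libraries 99.6, 131 and 181) and 61.1 in B cells (57.6–64.8, libraries 48.3, 55.7 and 149). MΦs were highest and B cells lowest in 6 of 6 libraries. MΦs without *Gata6* were above *Gata6* MΦs, at 318 CPM (306–329) and 243 (228–259). The share at equal depth was 32.3% of MΦs, 14.9% of T/NK cells and 8.69% of B cells.

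*Klf7* (1:64029447-64122282, −), a broadly expressed member studied mostly in neurons, stood at 115 CPM in MΦs (109–121, libraries 102, 113 and 154), 52.8 in T/NK cells (42.8–64.5, libraries 0, 48.8 and 65.8) and 30.8 in B cells (28.3–33.5, libraries 27.7, 29.8 and 45.4). The T/NK value of 0 was that of library 6. The MΦ libraries lay above all others, and the MΦ level varied least over libraries of the 8 members, by 1.50-fold from lowest to highest. Without the cells that carried MΦ UMIs the T/NK level was 40.9 CPM (31.2–52.8). *Gata6* MΦs (113) and MΦs without *Gata6* (116) did not differ beyond their intervals.

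*Klf10* (15:38291463-38300706, −) was the only member with its lowest level in T/NK cells at a depth that allowed a comparison with B cells. It stood at 17.1 CPM in MΦs (15.0–19.5, libraries 11.6, 16.6 and 25.6), 15.4 in B cells (13.7–17.3, libraries 7.51, 14.3 and 45.4) and 3.30 in T/NK cells (1.21–7.18, libraries 0, 3.51 and 44.4). The T/NK value rests on 6 UMIs, and the highest library on the 18 cells of library 6. The share at equal depth was 1.97% of MΦs, 1.99% of B cells and 0.402% of T/NK cells (0.0487–1.44%).

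**Figure D1:**
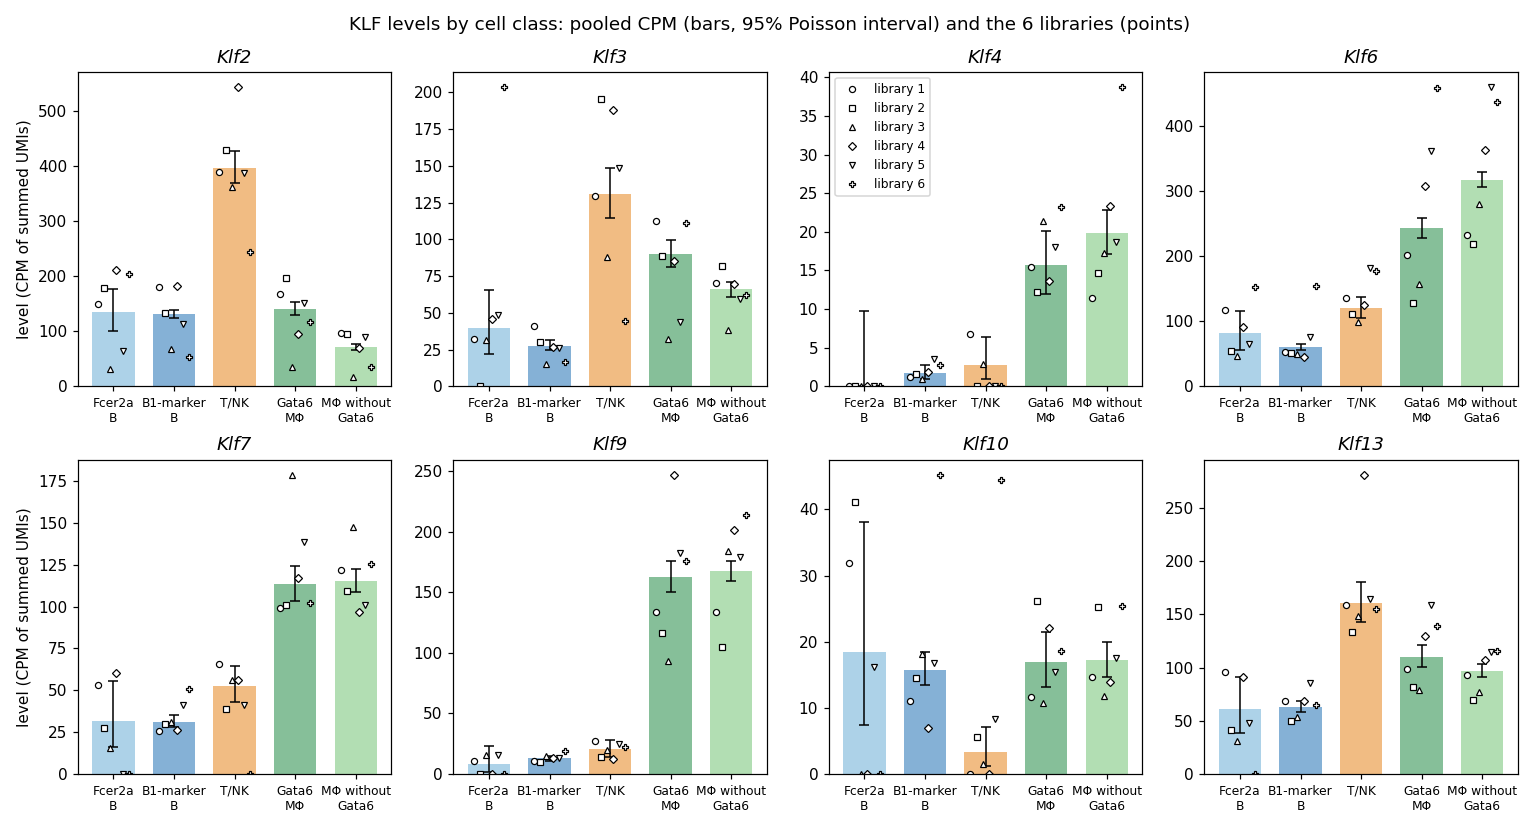
Level of each KLF gene (y axis, CPM of summed UMIs, with a scale for each panel) in 5 classes that share no cell (x axis, where B1-marker B stands for B cells with *Bhlhe41*, *Zbtb32* or *Cd5*). Bars give all libraries together with the 95% Poisson interval and points the 6 libraries. *Klf2* reaches 397 CPM in T/NK cells, and *Klf9* 163 and 168 CPM in the MΦ classes against 20.3 or less elsewhere. Library 6 stands high for *Klf10* in T/NK cells and B1-marker B cells, and is at 0 in *Fcer2a* B cells.

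**Figure D2:**
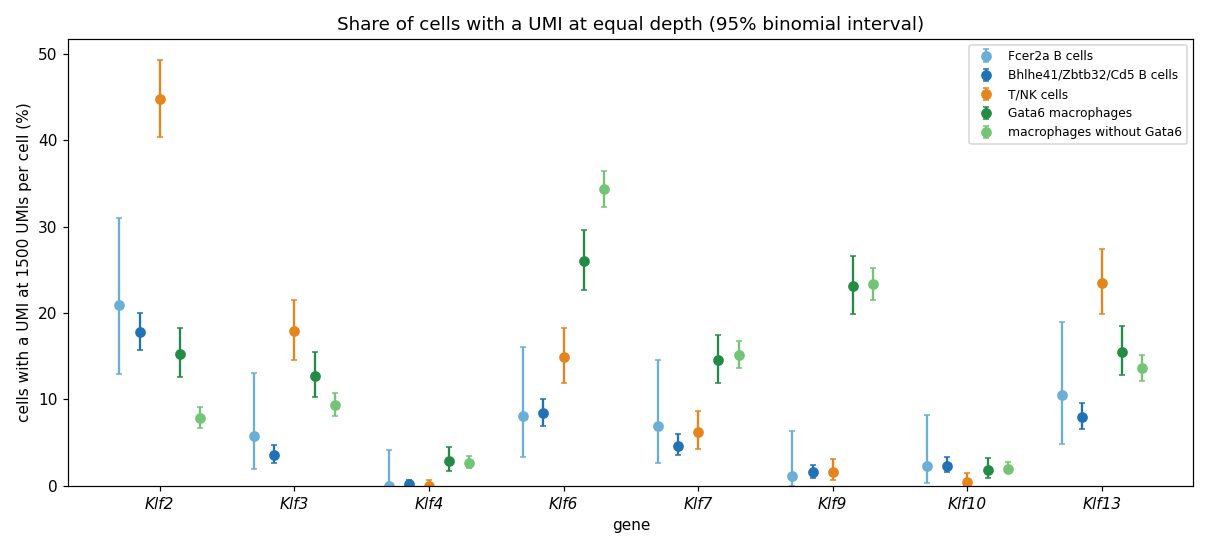
Share of cells with at least 1 UMI of each gene (y axis, %) in the same 5 classes after every cell was thinned to 1500 UMIs, with exact binomial 95% intervals. *Klf2* and *Klf13* have their highest share in T/NK cells (44.8% and 23.5%), and *Klf6*, *Klf7* and *Klf9* have theirs in the MΦ classes.

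Ratios of levels between classes were taken as log2 of the CPM of one class over the other, with an exact conditional 95% interval. Features with a mean of at least 5 CPM over both classes were compared, and a ratio past 2-fold (1 on the log2 scale) was counted. The 3 contrasts share classes, so their values are not independent of one another. In T/NK cells over B cells, 7 of the 8 members could be compared. Of these, 3 were higher past 2-fold, where 13.6% of all 9706 features were, and 1 was lower, where 9.85% were. The median over the compared members was 0.98, against 0.06 over all features.

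*Klf3* was 4.43-fold higher in T/NK cells (log2 ratio 2.15, 1.92–2.37), *Klf2* 2.92-fold (1.55, 1.43–1.67) and *Klf13* 2.36-fold (1.24, 1.05–1.42). All 3 were higher in 6 of 6 libraries with library ranges that do not overlap, which held for 6.08% of all features. *Klf10* was 4.67-fold lower (−2.22, −3.68 to −1.08) and lower in 6 of 6 libraries, with ranges that overlap. *Klf6* (0.98, 0.76–1.19), *Klf7* (0.78) and *Klf9* (0.85) did not reach 2-fold. The *Klf9* ratio changed sign to −0.75 once cells with MΦ UMIs were left out. When classes were called after thinning to 1500 UMIs, *Klf3* alone stayed past 2-fold and *Klf2* was at 0.97, and with the cells of both rules kept *Klf13* was at 0.86 and *Klf10* at −0.82. With class thresholds raised by 2 UMIs *Klf13* was at 0.91.

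In MΦs over B cells, 5 of 8 members were higher past 2-fold, against 19.4% of 9394 features, and none was lower, against 23.3%. *Klf9* was 14.8-fold higher (log2 ratio 3.89, 3.68–4.10), *Klf4* 7.18-fold (2.84, 2.40–3.32), *Klf6* 4.85-fold (2.28, 2.18–2.37) and *Klf7* 3.73-fold (1.90, 1.76–2.04). Those 4 had library ranges that do not overlap, which 19.2% of all features had in this direction. *Klf3* was 2.47-fold higher (1.30, 1.15–1.45) in 6 of 6 libraries, with ranges that overlap. *Klf2* went the other way, lower in 6 of 6 libraries at −0.57 (−0.67 to −0.47), short of 2-fold. *Klf13* was at 0.56 and *Klf10* at 0.15 (−0.10 to 0.41), and the latter turned to −0.31 under the scaling described next.

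Genes of mitochondria, ribosomal proteins and immunoglobulins made up 38.1% of UMIs in B cells, 36.7% in T/NK cells and 14.6% in MΦs. CPM taken without them moved every ratio of MΦs over B cells by −0.46 and over T/NK cells by −0.43 on the log2 scale, and took the median of the other features from −0.12 to −0.59 over B cells. Under that scaling *Klf3* over B cells was at 0.84 and *Klf2* at −1.03, while *Klf4*, *Klf6*, *Klf7* and *Klf9* stayed past 2-fold.

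In MΦs over T/NK cells, 5 of 8 members were higher, against 20.2% of 9642 features, and 1 was lower, against 26.1%. *Klf9* was 8.18-fold higher (log2 ratio 3.03, 2.56–3.54), *Klf4* 6.78-fold (2.76, 1.52–4.40), *Klf10* 5.19-fold (2.38, 1.23–3.84), *Klf6* 2.46-fold (1.30, 1.10–1.50) and *Klf7* 2.18-fold (1.12, 0.83–1.44). Of these, *Klf4*, *Klf6*, *Klf7* and *Klf9* had library ranges that do not overlap, as had 14.0% of all features. *Klf2* was 4.33-fold lower (−2.11, −2.25 to −1.98) in 6 of 6 libraries without overlap, as were 13.6% of features. *Klf3* (−0.85) and *Klf13* (−0.68) were lower by less than 2-fold, *Klf13* again without overlap. With the cells of both rules kept *Klf10* was at 0.97. CPM without the gene groups above left *Klf6* at 0.87 and *Klf7* at 0.69 and took *Klf3* to −1.28 and *Klf13* to −1.11.

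**Figure D3:**
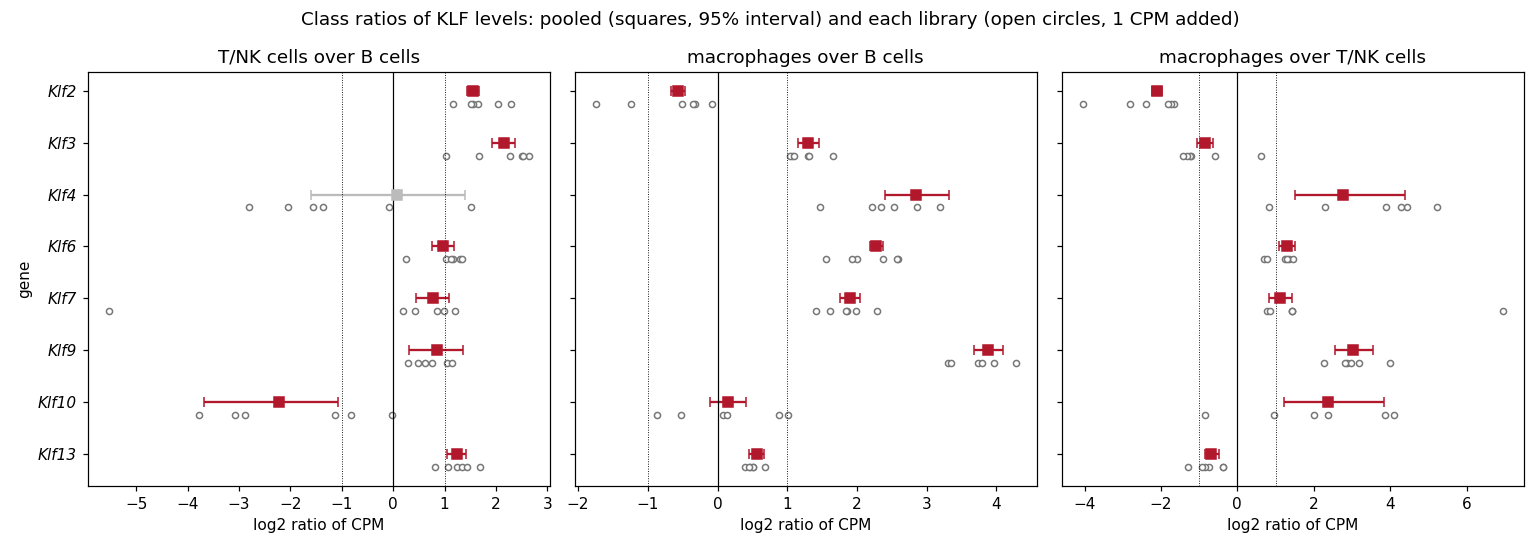
Log2 ratio of CPM (x axis) for each gene in the 3 contrasts of B cells, T/NK cells and MΦs. Squares give all libraries with the 95% interval, open circles the 6 libraries with 1 CPM added, and dotted lines 2-fold. Grey marks a gene below 5 CPM. *Klf2*, *Klf3* and *Klf13* lie to the right in T/NK cells over B cells (1.55, 2.15 and 1.24), and *Klf9* in both MΦ contrasts (3.89 and 3.03).

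Between the groups of B cells and between the groups of MΦs defined above no member passed 2-fold at full depth. *Fcer2a* B cells over *Bhlhe41*/*Zbtb32*/*Cd5* B cells gave 0 of 7 compared members, where 8.50% of features were higher and 6.84% lower, and *Klf2* was at 0.04 (−0.39 to 0.44). With 88 cells the interval of *Klf9* ran from −3.00 to 0.88, so a 2-fold difference was within reach of counting error there. These groups also differed in depth, at a median of 3043.5 and 6848.5 UMIs per cell. At equal depth *Klf7* stood at 88.2 CPM in the 68 B cells with *Fcer2a* (9 UMIs) and 31.2 in the 2842 without. That was a log2 ratio of 1.50 (0.34–2.47), higher in 5 of 6 libraries, and the interval of every other member held 0. *Gata6* MΦs over MΦs without *Gata6* gave 0 of 8, where 0.647% of features were higher and 2.94% lower. *Klf2* came closest at 0.97 (0.81–1.14), in 6 of 6 libraries higher. It stood at 141 CPM (libraries 35.8, 134 and 197) against 71.8 (libraries 17.2, 80.0 and 96.7), ranges that overlap. All 6 libraries in the same direction upward was seen for 3.66% of features, *Klf2* and *Klf13* (0.19, 0.02–0.35) among them. *Klf3* was at 0.45 (0.26–0.64) in 4 of 6 libraries and *Klf6* at −0.39 (−0.49 to −0.28), lower in 5 of 6. Over the same cells, the listed markers of large peritoneal MΦs summed to 2649 CPM with *Gata6* and 1518 without, a list that includes *Gata6* itself (266 CPM and, by the rule, 0), and those of small peritoneal MΦs to 2349 and 7773.

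*Gata6* is a sparse transcript, so the split was repeated at equal depth, with other splits that were chosen after the levels were known. *Klf2* stood at 189 CPM in the 275 MΦs with a *Gata6* UMI (149–236) and 90.5 in the 2415 without (81.0–101), a log2 ratio of 1.06 (0.69–1.42) with 5 of 6 libraries higher. *Klf6* went the other way, 204 against 310 CPM, at −0.61 (−0.94 to −0.29) and lower in 6 of 6. A wide contrast inside the MΦs was that of *Irf4*, a factor of monocyte-derived peritoneal MΦs. *Klf2* stood at 17.4 CPM (4.75–44.6, 4 UMIs) in the 153 MΦs with *Irf4* and at 106 (95.6–116) in the rest, at −2.60 (−4.48 to −1.23) and lower in 5 of 6 libraries. Low *Klf2* was not particular to *Irf4*. In the 41 MΦs with *Trib3* it was at 16.3 against 102 CPM (−2.65, −7.96 to −0.16), lower in 6 of 6 libraries but from 1 UMI. With *Folr2* the interval of *Klf2* held 0 (−0.83, −2.29 to 0.30). *Klf7* also was lower with *Irf4*, 61.0 against 125 CPM (−1.04, −1.92 to −0.28), whereas *Klf9* was higher, 266 against 183 (0.54, 0.14–0.92), in 6 of 6 libraries. MΦs with *Tnf* had more *Klf6*, 378 against 290 CPM (0.38, 0.13–0.62), in 5 of 6 libraries, and the interval of every other member there held 0. More *Klf6* was not particular to *Tnf*. It was at 429 against 296 CPM with *Folr2* (0.54, 0.07–0.97), higher in 4 of 6 libraries. With *Irf4* it was at 379 against 294 CPM (0.37, 0.03–0.68), higher in 3 of 6. With *Trib3* (41 cells) the interval of *Klf6* held 0 (−0.12, −0.90 to 0.57).

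In B cells the split by *Egr3* or *Egr4*, early genes of antigen receptor signalling, set *Klf2* and *Klf10* in opposite directions. *Klf2* stood at 69.8 CPM (46.0–102) in the 258 cells with either and at 172 (160–186) in the 2652 without, at −1.31 (−1.92 to −0.75) and lower in 6 of 6 libraries. *Klf10* stood at 41.3 (23.6–67.1) against 11.3 (8.25–15.1), at 1.87 (0.95–2.72) and higher in 5 of 6. *Klf7* was higher as well (0.84, 0.09–1.51). In T/NK cells *Klf2* was 343 CPM in cells with *Nkg7* and 491 without, lower in 5 of 6 libraries.

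**Figure D4:**
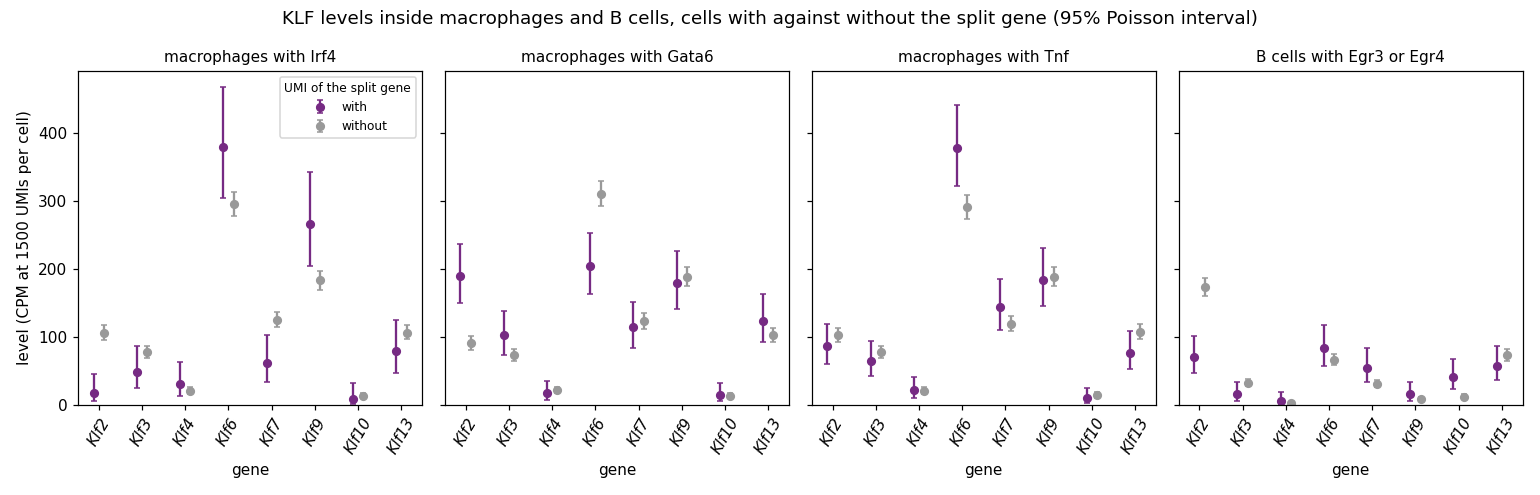
Level of each KLF gene at 1500 UMIs per cell (y axis, CPM, with 95% Poisson interval) in cells with (purple) and without (grey) a UMI of the gene named above the panel. *Klf2* is at 17.4 against 106 CPM for *Irf4*, 189 against 90.5 for *Gata6* and 69.8 against 172 for *Egr3* or *Egr4*.

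A thinned B cell held UMIs of 0.492 members on average, a T/NK cell 1.09 and a MΦ 1.09. At least 2 members were seen together in 8.28% of B cells, 28.9% of T/NK cells and 30.8% of MΦs. Nearly all of the pairs tried in these classes had intervals that overlap, and the few that stood apart are given here. In MΦs, *Klf3* was found in 17.7% of cells with *Klf2* and 9.38% of those without. *Klf13* was found in 26.4% of the 53 MΦs with *Klf10* (15.3–40.3%) and 13.8% of those without (12.5–15.2%), intervals that barely part. In B cells, *Klf10* was found in 0.569% of cells with *Klf2* and 2.31% of those without. Cells share a library and a class here, so this describes the pool of cells and is no test.

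By library number, *Klf2* in MΦs was lowest in library 3 (21.0 CPM) and in B cells in libraries 6 (58.7) and 3 (72.7). *Klf6* and *Klf10* in B cells were highest in library 6 (149 and 45.4 CPM). The B cells of library 6 also had the lowest median depth (3866.5 UMIs) and the highest sum over 12 immediate early genes (2639 CPM against 1314 to 1893), and the MΦs of library 3 the highest sum among MΦs (5152 against 3229 to 4004). The part of depth and of the early genes in these values was not tested.

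The genes around the family were taken from lists. Of 9 further KLF genes, *Klf16* alone reached 5 CPM in any contrast, and it was lower in T/NK cells than in B cells (7.15 against 14.9 CPM, −1.06). Among the SP genes, close relatives with similar zinc fingers, *Sp4* was higher in T/NK cells than in B cells (1.41) and *Sp3* higher in MΦs than in B cells (1.29), 1 of 4 each. Of all features, 13.6% and 19.4% were higher past 2-fold in these contrasts. Of the corepressors that KLF proteins bind, *Ctbp2*, a partner of KLF3, was furthest above the lymphocytes in MΦs, at 33.2 CPM against 1.19 in B cells (4.80) and 2.75 in T/NK cells (3.59), and *Sap30* stood 1.51 and 2.30 higher. *Ctbp1*, the other CtBP gene, was at 0.17 and 0.28.

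Of the homing genes listed as targets of KLF2, *Itgb7* (log2 ratio 1.65), *S1pr1* (1.64) and *Ccr7* (1.43) were higher in T/NK cells than in B cells past 2-fold, where the median over all features was 0.06. The same genes were lower in MΦs than in T/NK cells, *Ccr7* at −3.21, *S1pr1* at −2.06 and *Itgb7* at −1.25. The list did not follow *Klf2* in every contrast. In *Gata6* MΦs over the rest, with *Klf2* at 0.97, 2 of 4 were lower past 2-fold (2.94% of all features) and 0 higher (0.647%). In *Fcer2a* over *Bhlhe41*/*Zbtb32*/*Cd5* B cells, with *Klf2* at 0.04, 2 of 4 were higher (8.50% of features). In MΦs over B cells, with *Klf2* at −0.57, *Itgb7* was at 0.40. Of 9 regulators of *Klf2* and *Klf4*, 1 was past 2-fold in T/NK cells over B cells, *Mef2c* at −3.90, where 13.6% of all features were higher and 9.85% lower, and 5 in MΦs over B cells, where 19.4% were higher and 23.3% lower. In the latter contrast *Mef2a* (1.88), *Wwp1* (1.70) and *Mapk7*, the kinase ERK5 (1.25), were higher, and *Mef2c* (−4.15) and *Foxo1* (−2.65) were lower. Thus *Mef2a* and *Mef2c* went in opposite directions between B cells and MΦs. The ratios of *Mapk7*, of *Sp3* above and of *Nr3c1* below lie within the −0.46 shift of 2-fold.

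Of 13 genes of AC clearance, 12 could be compared in MΦs and all 12 were higher than in B cells past 2-fold, where 19.4% of all features were. The list median was 5.67, against −0.15 over all features. The same list was higher in T/NK cells over B cells in 8 of 8 compared (*Marco* 4.02, *Thbs1* 2.96), where 13.6% of all features were. It stood beside the MΦ markers found in that class. Each of the 8 was higher in 3 or 4 of 6 libraries only, *Marco* in 4 and *Thbs1* in 3. Between *Gata6* MΦs and the rest 1 of 12 passed 2-fold, *Axl* at −2.36, where 0.647% of all features were higher and 2.94% lower. Of 4 glucocorticoid genes compared, 2 were higher in T/NK cells than in B cells, where 13.6% of all features were. They were *Tsc22d3* (1.52) and *Nr3c1*, the receptor (1.05). In MΦs over B cells *Nr3c1* was higher (1.02), where 19.4% of all features were, and *Tsc22d3* lower (−2.98), where 23.3% were. The other 2 were within 2-fold in both contrasts. Of 6 TGF-β genes, 1 was past 2-fold in each of these contrasts. *Smad7* was higher in T/NK cells than in B cells (2.31), where 13.6% of all features were. *Tgfbr2* was lower in MΦs than in B cells (−2.17), where 23.3% of all features were. Immediate early genes were higher in MΦs than in B cells for 8 of 11 compared, led by *Dusp1* (4.32) and *Atf3* (3.97), and lower for none, where 19.4% of all features were higher and 23.3% lower. Of the 8, *Egr1* (1.20), *Egr2* (1.32), *Jun* (1.02) and *Zfp36* (1.00) lie within the −0.46 shift of 2-fold.

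Genes with the most similar pattern were ranked by Pearson's r of log2(CPM + 1) over 30 profiles, 5 classes in each of 6 libraries, among 9744 features. The profiles share classes and libraries, thin profiles give shared zeros, and r is a description. For *Klf2* they were *Rasa3* (0.85), *S1pr1* (0.83) and *Supt4a* (0.79). *S1pr1*, one of the homing genes above, stood at 341 CPM in T/NK cells and between 76.0 and 111 in the other classes. For *Klf9* they were *Acsl4* (0.96), *Smox* (0.95) and *Tmbim1* (0.95), and for *Klf4* *Tmem106a* (0.98), *Man1c1* (0.98) and *Wwc2* (0.97). For *Klf6* they were *BC005537* (0.93), *Pdcd6ip* (0.91) and *Cd84* (0.88), and for *Klf7* *Pnpla8* (0.96), *Ranbp9* (0.95) and *Atg5* (0.95). For *Klf13* they were *Ugcg* (0.94), *Ppp1r12a* (0.93) and *Nin* (0.92), for *Klf3* *Dyrk2* (0.85), *Mindy2* (0.80) and *Ergic3* (0.78), and for *Klf10* *Homer1* (0.84), *Acadvl* (0.82) and *Carm1* (0.80). With 10 CPM added in place of 1, r was 0.76, 0.65 and 0.62 for the *Klf3* genes and 0.74, 0.73 and 0.72 for those of *Klf10*. *Ergic3* lay between 31.9 and 42.3 CPM in all 5 classes, so a high r need not mean the same class pattern. Within the family the closest pair was *Klf4* and *Klf9* (0.85), followed by *Klf4* with *Klf6* and *Klf6* with *Klf9* (0.72 each), and *Klf2* ran against *Klf4* (−0.45).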

How the data were processed

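Adherent peritoneal cells were processed by droplet single-cell RNA-seq, 1 library for each of 6 combinations of genotype and condition. The authors aligned reads to the mouse and human genomes, counted UMIs per mouse gene and joined the 6 libraries in 1 table. The deposited values are raw counts. The submitters' processing notes name Cell Ranger 2.2 and Seurat 3.0 with mm10 (GRCm38). No removal of free RNA is stated in the sources used here.

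Barcodes were kept with 500 or more genes, mitochondrial counts of 10% or less and log genes over log UMIs not under 0.8. This left out 95. Counts were summed per class over all libraries. For a count of 0, 3 counts were taken as the upper limit. Poisson, binomial and conditional 95% intervals are exact (scipy 1.17.1). With an expected doublet rate of 0.01, Scrublet (scanpy 1.11.5, Python 3.11.15) called 68 barcodes (0.876%), which were kept. Of these, 39 lay in B cells, 3 in T/NK cells and 11 in MΦs. As each condition has 1 library and cells are not replicates, no test of a difference between classes was run. Ratios and thinning were checked on simulated data. Gene positions are from GENCODE vM21 (GRCm38).

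The members, classes, lists and splits were chosen with earlier results of these data known. Named genes are the members, the genes with the largest and smallest ratios of each list, and the 3 most similar genes of each member. A gene of the homing list is not reported here. Alternatives were other cell filters, class thresholds, scalings, count minimums, doublet removal and leaving out each library.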

Additional observations from a re-analysis of the deposited data

Results flagged for a closer look

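In 5 of 39 groups of 6 libraries looked at, the highest library stood far from the nearest other by Dixon's criterion at 95%. Its rate of about 1 in 20 holds for like libraries. These libraries differ in genotype and condition and some groups hold few UMIs, so 5 of 39 was not read as an excess. In library 6, *Klf3* was at 204 CPM in *Fcer2a* B cells (7 cells), *Klf10* was at 44.4 CPM in T/NK cells (18 cells), and *Klf6* and *Klf10* were at 154 and 45.3 CPM in *Bhlhe41*/*Zbtb32*/*Cd5* B cells (135 cells). In library 4, *Klf13* was at 281 CPM in T/NK cells (52 cells).

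The 1277 cells of no class, which no comparison used, carried every member at more than 0.699 CPM, the level of 3 counts. *Klf2* was at 94.8 CPM, *Klf3* at 38.4, *Klf4* at 8.15, *Klf6* at 170, *Klf7* at 44.9, *Klf9* at 52.2, *Klf10* at 21.9 and *Klf13* at 73.8. Their median depth was 2735 UMIs and 514 of them came from library 6.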

How the results depend on the processing

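The 15 member ratios past 2-fold kept their direction in all 270 values under the alternatives tried and stayed past 2-fold in 260. In T/NK cells over B cells, 2 members in place of 4 (and 1111 of all features in place of 2278) were past 2-fold with the cells of both rules kept, and 1 (and 2712) with classes called at 1500 UMIs. With class thresholds raised by 2 the count stayed at 4, with *Klf13* lost (0.91) and *Klf6* gained (1.05). In *Fcer2a* over *Bhlhe41*/*Zbtb32*/*Cd5* B cells, where the count was 0 members and 1424 features, it was 1 member (*Klf13*) and 2689 features at 1500 UMIs, 2 members (*Klf9*, *Klf10*) and 3180 features as the median over libraries, and 0 to 1 when each library was left out (1 without library 5, *Klf9*). In *Gata6* MΦs over the rest, where it was 0 and 311, it was 1 member (*Klf2*, 1.02) with median-ratio scaling, 0 to 1 when each library was left out (*Klf2*, 1.10, without library 4), 3 members and 1781 features against cells with *Irf4*, and 1316 features at 1500 UMIs. A mean of at least 20 CPM, and no minimum, gave 1047 and 6254 features in T/NK cells over B cells, 2132 and 9479 in MΦs over B cells, 2326 and 9089 in MΦs over T/NK cells, 365 and 2901 in the B cell split and 108 and 2565 in the *Gata6* split. A higher or no minimum changes by construction how many features are compared and leaves each ratio as it was. The values of those settings among the 270 could therefore not move. With a mean of at least 20 CPM, 3 members in place of 4 were compared and past 2-fold in T/NK cells over B cells. In MΦs over B cells it was 4 in place of 5, and in MΦs over T/NK cells 4 in place of 6. Other causes were not tested. Leaving out B and T/NK cells with MΦ UMIs and CPM without mitochondrial, ribosomal and immunoglobulin genes were chosen after seeing the data. No paired analysis was possible because library numbers are not matched to genotypes or times. Class ratios within each library are given in the report as counts of libraries. Depth limits *Klf4* and *Klf10* in T/NK cells (5 and 6 UMIs) and every member in *Fcer2a* B cells.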
